A study of Mus musculus with 46 samples.

Results

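The mouse miRNAs mmu-miR-208a-3p, mmu-miR-208b-3p and mmu-miR-499-5p, written without the prefix from here on, are cut from transcripts of myosin heavy chain genes. They were chosen by name among the 1881 mouse miRNAs on the array, and all 3 belong to the 815 miRNAs that were detected on at least 5 of the 45 arrays analysed. The arrays held total RNA of heart, liver or brain of male C57BL6 mice in which Il1a is knocked out, so all groups, 0 h pieces included, share this deletion. Each organ was cut into 8 pieces that were stored for 0, 1, 3, 6, 12, 24, 48 or 96 h at 4 °C or at room temperature (RT) before the RNA was isolated, and the RNA integrity number (RIN) fell with storage. There were 7 heart, 6 liver and 8 brain arrays of 4 °C storage and 8 arrays of each tissue of RT storage. The pieces of a tissue at a temperature lay on 1 slide, and by the study's methods all 3 tissues of a temperature came from 1 animal, so that within a tissue the animal, the slide and the temperature cannot be told apart. Differences between the pieces of a heart can hold the region that was cut as well as the storage time. No age of the animals was used here.

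Myosin heavy chains are the motor proteins of the muscle filament. In the mouse heart Myh6 encodes the fast alpha chain of the adult ventricle, Myh7 the slow beta chain, which is prominent before birth and in slow skeletal muscle, and Myh7b a related chain. An intronic miRNA is made from the transcript of its host gene, and the miRNAs of these genes are known as myomiRs, which act on the balance of fast and slow myosin in muscle. A miRNA finds its targets mainly through its seed, bases 2 to 8. The mature sequences of the 3 miRNAs are shown 5′ to 3′ because the seed is what they share. The seed is in capitals, and the sequences and positions are those of RefSeq on GRCm38.p6.
miR-208a-3p: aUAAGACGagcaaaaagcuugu
miR-208b-3p: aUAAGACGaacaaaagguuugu
miR-499-5p: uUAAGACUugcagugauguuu

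The seed of miR-208a-3p and miR-208b-3p is the same, and that of miR-499-5p differs from it in the last base. Bases 2 to 7 are equal in all 3, and among 1679 mature mouse miRNA names in the RefSeq table no other name has these bases there. Counted from 1 at the 5′ end, miR-208a-3p and miR-208b-3p have equal bases at 19 of 22 positions and differ by G10A, A16G and C18U (base of miR-208a-3p first). Each miRNA has its own pair of probes, and whether those of one also bind the other was not tested. miR-208a-3p and miR-499-5p are equal at 12 of 21 positions, of which 6 lie after base 8.

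The hairpins show which arm each member is. In the sequences of the 3 hairpins, the member's arm is in capitals: it is the 3′ arm in both miR-208 hairpins and the 5′ arm in that of miR-499.
Mir208a: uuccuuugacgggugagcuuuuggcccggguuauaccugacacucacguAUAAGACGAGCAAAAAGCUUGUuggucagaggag
Mir208b: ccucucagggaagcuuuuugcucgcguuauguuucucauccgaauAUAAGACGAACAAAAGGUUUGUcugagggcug
Mir499: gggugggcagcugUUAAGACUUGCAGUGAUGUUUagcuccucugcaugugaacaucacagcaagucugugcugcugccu

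Mir208a lies at chr14:54949060-54949142 on the minus strand, inside the span of Myh6 (chr14:54941921-54968017). Mir208b lies at chr14:54975700-54975776 on the minus strand, inside that of Myh7 (chr14:54970684-54994626), and 26557 bases separate the hairpins. Mir499 is on another chromosome, at chr2:155622880-155622958 on the plus strand, inside Myh7b (chr2:155611243-155634307).

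Levels are given as log2 of the signal after variance stabilizing normalization (VSN), which scales the arrays to each other. A miRNA was called detected or not by the scanner software on each array. A miRNA that is not detected still has a VSN value, which reflects signal near the background and can be below 0. Per array, 268 to 798 miRNAs were detected, their signals summed to 153088 to 541770 units, and 0 spots were saturated. The heart labels were checked on the muscle miRNAs miR-1a-3p and miR-133a-3p, which were at least 13.60 and 12.05 on every heart array. On the other arrays they were at most 7.81 and 5.60. miR-124-3p and miR-9-5p of brain were detected on 2 and 3 of the 15 heart arrays, and miR-122-5p of liver on 15, at 5.03 to 7.34 on the heart arrays of RIN above 6.

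All 3 miRNAs were heart miRNAs in these data. miR-208a-3p was detected on 15 of 15 heart arrays, 0 of 14 liver arrays and 0 of 16 brain arrays. Its lowest, median and highest levels were 6.77, 7.80 and 8.17 in heart, -4.70, -3.06 and -0.64 in liver, and -4.05, -3.28 and -0.74 in brain. The heart levels overlapped with none of the others, while the ranges of liver and brain overlapped. miR-499-5p was detected on 15 of 15 heart arrays, 0 of 14 liver arrays and 1 of 16 brain arrays, that of 1 h at RT. Its lowest, median and highest levels were 7.19, 9.85 and 10.20 in heart, -1.05, 0.14 and 1.03 in liver, and 1.03, 1.92 and 2.54 in brain. Before scaling, the signal of miR-499-5p was 1.67 to 4.77 on the brain arrays and -0.84 to 0.45 on the liver arrays, so that these did not overlap although nearly all were below the detection call. miR-208b-3p was detected on 7 of 15 heart arrays, and on 0 of 14 liver and 0 of 16 brain arrays. Its levels were -0.45, 2.77 and 4.40 in heart, -3.90, -2.65 and -0.31 in liver, and -3.71, -2.67 and -0.22 in brain. The lowest heart piece of miR-208b-3p therefore lay within the range of the other tissues.

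**Figure D1:**
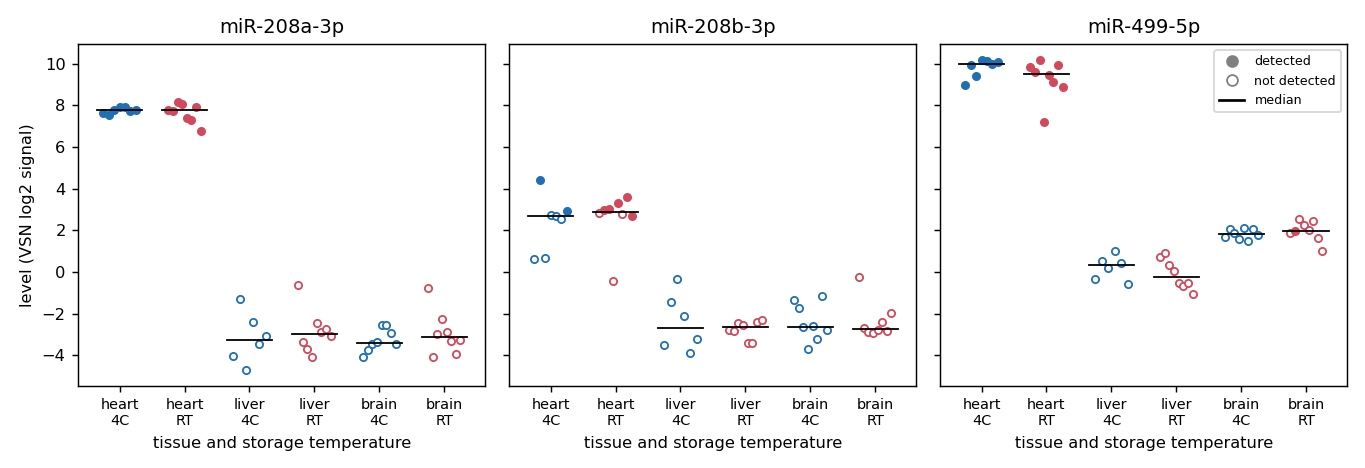
Level (VSN log2 signal) of each miRNA on the 45 arrays by tissue and storage temperature, ordered by time within a group. Filled points are detected, open points are not, and the black line is the median. miR-208a-3p and miR-499-5p are detected on every heart array, and miR-208b-3p on 7 of 15.

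The tissues were compared on arrays of RIN above 6, with the mean of each slide as 1 value and 2 slides, from the same 2 animals, per tissue. For liver at RT only the piece of 0 h had a RIN above 6, so that 1 of the liver values is a single array, for miR-208a-3p its highest level in liver (-0.64). The slide means of miR-208a-3p were 7.76 and 7.74 for the hearts stored at 4 °C and RT, those of miR-499-5p were 9.82 and 9.23, and those of miR-208b-3p were 2.38 and 2.41. In limma, 3 of 3 miRNAs were higher in heart than in liver, where 29.9% of the 815 miRNAs were called higher, and 3 of 3 were higher than in brain, where 12.5% were. miR-208a-3p and miR-208b-3p had passed the filter of 5 arrays through heart arrays alone, and miR-499-5p through 15 heart arrays and 1 brain array. Signal in heart was thus a condition of their being tested. With no filter all 3 were also called higher than in liver and brain. The median of all 815 differences was 0.69 against liver and -0.44 against brain. As measured, the differences from liver were 9.66 ± 0.83 (SE) for miR-208a-3p, 8.98 ± 0.30 for miR-499-5p and 4.90 ± 0.24 for miR-208b-3p, with adjusted p of 0.0012, 0.000118 and 0.000349. From brain they were 10.72 ± 0.83, 7.52 ± 0.30 and 4.75 ± 0.24, with adjusted p of 0.000333, 3.93e-05 and 7.36e-05. Without the liver slide of RT the difference of miR-208a-3p from liver was 10.92. The sizes depended on how signals near the background were handled. Under the normexp background correction the differences from liver were 2.92 for miR-208a-3p, 4.41 for miR-499-5p and 0.34 for miR-208b-3p, and those from brain were 2.95, 4.33 and 0.36. All 3 still passed against both tissues. With no scaling between arrays that of miR-208b-3p was 2.01 from either tissue.

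A miRNA that is detected on no array of a tissue was also set against a reference level. This was the lowest signal of any detected miRNA on each array, or the miRNA's own value if higher. It is not a detection limit of the miRNA itself. In heart, miR-208b-3p was not detected at up to 2.83, while its reference was 1.59 in liver and 1.23 in brain. The heart mean of miR-208a-3p was 71.5-fold above the liver reference and 91.9-fold above the brain reference. That of miR-499-5p was 245-fold above the liver reference. That of miR-208b-3p was 1.75-fold and 2.24-fold above the references of liver and brain, and it includes 8 of 13 pieces in which this miRNA was not detected. Among the arrays of RIN above 6, miR-499-5p was detected on 1 of 14 brain arrays.

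In heart, the level of miR-208a-3p, whose host gene encodes the main myosin of the adult mouse heart, spanned 0.40 log2 units at 4 °C and 1.41 at RT. At 4 °C its levels in order of time, from 1 h to 96 h, were 7.64, 7.52, 7.80, 7.91, 7.92, 7.71 and 7.80. At RT, where the series starts at 0 h, they were 7.80, 7.75, 8.17, 8.08, 7.37, 7.28, 7.90 and 6.77. The pieces of 12 h, 24 h and 96 h at RT were below all pieces at 4 °C, and that of 48 h, with a RIN of 4.6, was not. The array's own error was 7.32% to 7.43% of the signal.

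miR-499-5p, from the host gene Myh7b, had levels of 9.00, 9.93, 9.42, 10.18, 10.12, 9.99 and 10.09 in the same order at 4 °C. At RT, from 0 h on, they were 9.85, 9.59, 10.20, 7.19, 9.46, 9.12, 9.96 and 8.87. The piece of 6 h at RT, with a RIN of 8.5, was the lowest at 7.19, and the next was that of 96 h at 8.87. The levels at RT spanned 3.01 log2 units over all 8 pieces and also over the 6 intact ones.

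miR-208b-3p, from the gene of the slow beta myosin, was near the limit of detection. At 4 °C its levels from 1 h on were 0.61, 4.40, 0.70, 2.75, 2.68, 2.57 and 2.92, and it was detected in the pieces of 3 h and 96 h. At RT they were 2.83, 2.98, 3.05, -0.45, 3.30, 2.77, 3.61 and 2.70 from 0 h on, and it was detected in those of 1, 3, 12, 48 and 96 h. The piece of 6 h was again the lowest at RT. Where detected, the array's error was 9.28% to 22% of the signal.

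**Figure D2:**
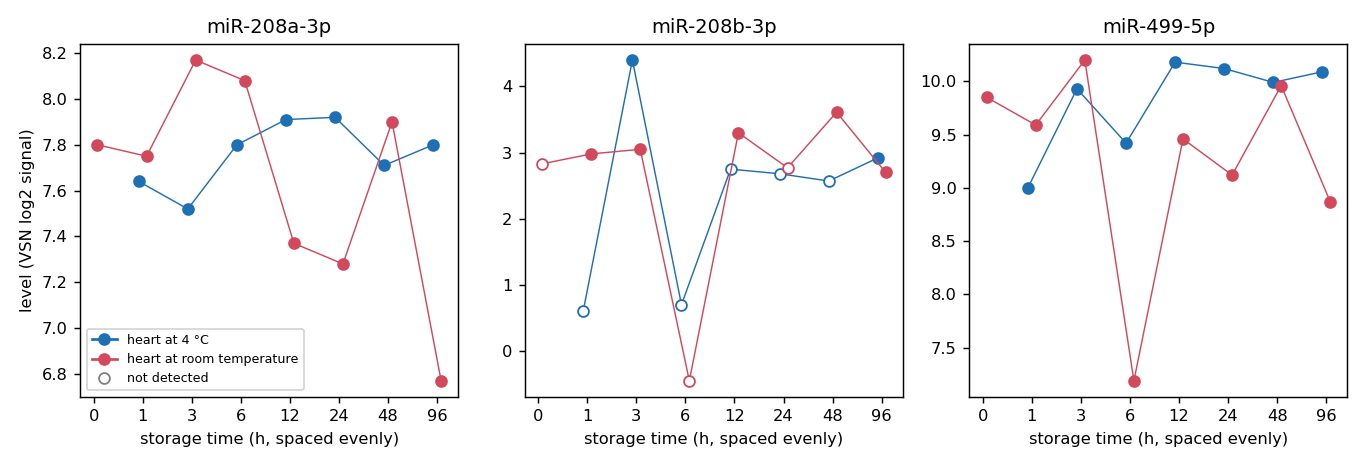
Level (VSN log2 signal) of each miRNA in the 15 heart pieces against storage time, at 4 °C and at room temperature; the times are spaced evenly and each panel has its own vertical range. miR-499-5p and miR-208b-3p are lowest in the piece of 6 h at RT, where miR-208a-3p is at 8.08.

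None of the 3 miRNAs passed the test for a change with storage time in heart. The slope over the hours was fitted in limma and is given as log2 units per 24 h. At RT it was -0.24 ± 0.11 (SE, 8 pieces) for miR-208a-3p, -0.056 ± 0.24 for miR-499-5p and 0.17 ± 0.30 for miR-208b-3p, with adjusted p of 0.0742, 0.833 and 0.636. So 0 of 3 were called, while 57.9% of the 815 miRNAs were and the median slope of all was 0.004. Before adjustment miR-208a-3p alone was below 0.05. The 95% intervals ran from -0.48 to -0.0039 for miR-208a-3p, from -0.59 to 0.48 for miR-499-5p and from -0.52 to 0.85 for miR-208b-3p. Slopes within these bounds remain possible. Each piece is 1 sample of 1 heart, and the p-values measure the spread of pieces around the line, not the spread between animals.

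At 4 °C the slopes were 0.024 ± 0.049 (SE, 7 pieces) for miR-208a-3p, 0.14 ± 0.11 for miR-499-5p and 0.23 ± 0.34 for miR-208b-3p, with limma adjusted p of 0.809, 0.444 and 0.738. Of the 3, 0 were called, and 0 were below 0.05 before adjustment, beside 9.45% of all miRNAs called. The interval of miR-208a-3p was the narrowest, from -0.091 to 0.14. The slope at RT minus that at 4 °C was -0.27 ± 0.12 for miR-208a-3p, -0.20 ± 0.29 for miR-499-5p and -0.059 ± 0.49 for miR-208b-3p. Their limma adjusted p were 0.0765, 0.58 and 0.925, and 42.2% of all miRNAs were called for this difference. Here too miR-208a-3p alone was below 0.05 before adjustment, with an interval of -0.52 to -0.015.

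The result for miR-208a-3p at RT depended on the scaling and on the degraded pieces. Without the piece of 48 h its slope was -0.29 and passed (limma adjusted p = 0.031), and without that of 96 h it was -0.09 (0.822). Its RT slope was called under 4 other scalings, at -0.31 to -0.56, and was 0.10 with no scaling between arrays, under which the median slope of all miRNAs was 0.31. The signals of miR-208a-3p before scaling were 190, 192, 261, 264, 158 and 148 units from 0 to 24 h at RT, then 412 at 48 h and 232 at 96 h. The degraded pieces were thus above 4 of the 6 intact ones, and that of 48 h above all, while the number of detected miRNAs in them was 589 and 683 against 374 to 490 in the other RT pieces. The part of this in the scaled values was not tested.

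The degraded heart pieces, those of 48 h and 96 h at RT with RIN values of 4.6 and 2.2, were also compared with the 6 intact RT pieces, whose RIN values were 8.2 to 9.0. The difference was -0.41 ± 0.38 (SE) for miR-208a-3p, 0.18 ± 0.71 for miR-499-5p and 0.74 ± 0.89 for miR-208b-3p. In limma their adjusted p were 0.391, 0.833 and 0.498. Of the 3, 0 were called and 0 were below 0.05 before adjustment, while 48.3% of all miRNAs were called. For miR-499-5p both degraded pieces lay within the range of the intact ones, which the low piece of 6 h sets. The other 5 intact pieces were at 9.12 to 10.20, above that of 96 h at 8.87. The sign of the difference of miR-499-5p was not stable: it was -0.23 without the piece of 6 h (left out after its values were seen), -0.14 against the intact pieces of both temperatures, and -0.24 to -0.84 under 4 other scalings. For miR-208a-3p the piece of 96 h, at 6.77, was below that range and the piece of 48 h, at 7.90, was inside it. The difference of miR-208a-3p was 0.16 without the piece of 96 h and -0.98 without that of 48 h, and neither passed. With no scaling between arrays it was 0.65, beside a median of 1.05 over all miRNAs, while 4 other scalings called it lower, at -0.74 to -1.42.

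The muscle miRNAs miR-1, miR-133 and miR-206, with 12 arms on the array of which 7 were analysed, served as the other miRNAs of the muscle program. Of the 7, 5 were higher in heart than in liver and 6 higher than in brain, beside 29.9% and 12.5% of all miRNAs. At RT 1 rose and 3 fell in heart, a share like the 57.9% called among all miRNAs, and their median slope was -0.24 against 0.004 over all miRNAs. Those that fell were miR-1a-1-5p (-0.30), miR-1a-2-5p (-0.39) and miR-133a-5p (-0.28) and belong to the hairpins that also give miR-1a-3p and miR-133a-3p. The one that rose was miR-206-3p (1.64), a miRNA of skeletal muscle that was detected on 6 of the 45 arrays. The best known products of these hairpins, miR-1a-3p, at -0.19 ± 0.10 (SE), and miR-133a-3p, at -0.24 ± 0.10, did not pass, with limma adjusted p of 0.114 and 0.0657. At 4 °C 0 of the 7 were called, beside 9.45% of all, with slopes of -0.19 to 0.055.

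**Figure D3:**
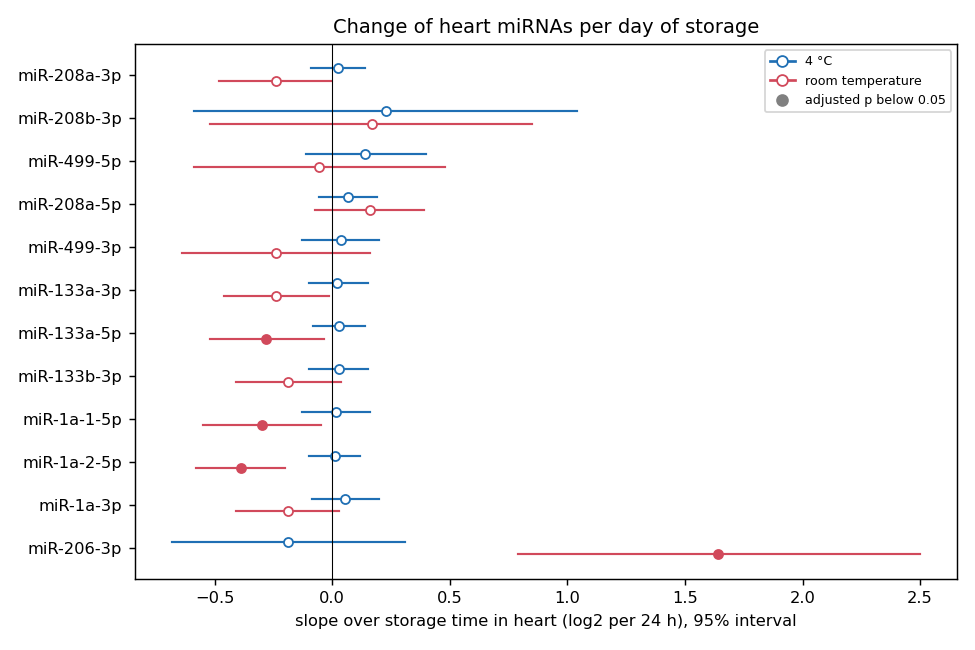
Slope over storage time in heart (log2 per 24 h) with its 95% interval from limma for the 3 miRNAs, the other arms of their hairpins and the muscle miRNAs, at 4 °C and at room temperature. Filled points have an adjusted p below 0.05. The intervals of the 3 members at RT are -0.48 to -0.0039 for miR-208a-3p, and include 0 for the others.

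Well above the background, a difference between 2 miRNAs on the same array does not depend on a scaling factor of that array. This does not hold for VSN values near the background, where miR-208b-3p lies. For 9 pairs, the 3 members with each other and each with miR-1a-3p and miR-133a-3p, the slope of the difference was tested at each temperature by a two-sided exact permutation test of the storage times. Of the 18 tests 0 gave a p below 0.05, and the smallest was 0.116 (adjusted p = 0.715), for miR-208b-3p less miR-499-5p at RT. The smallest p that the design allows is 4.96e-05 at RT and 0.000397 at 4 °C. miR-208a-3p followed miR-133a-3p closely: at 4 °C their difference spanned 0.27 log2 units over 7 pieces, and its slope was 0.0024 per 24 h (exact permutation p = 0.929). At RT it spanned 0.80, with a slope of -0.0079 (p = 0.888, exact permutation test). The difference of miR-499-5p and miR-133a-3p spanned 0.97 at 4 °C and 2.45 at RT. Under quantile normalization and the normexp background correction, 2 and 3 of the 18 tests passed, all of miR-208a-3p at RT. Its slope against miR-133a-3p was then -0.35 and -0.36.

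The levels of miR-499-5p and miR-208b-3p were spread more over the pieces of a heart than that of miR-208a-3p, for miR-208b-3p near the background. Over the 13 pieces with RIN above 6, the SD within a slide was 0.27 log2 units for miR-208a-3p, beside a median of 0.29 over the 330 miRNAs detected on all 13. It was 0.79 for miR-499-5p, which was larger than that of 91.2% of the 330, and 1.37 for miR-208b-3p, which was detected in 5 of the 13. The other arm of the miR-208b hairpin, miR-208b-5p, was detected in 0 of the 13. Its SD was 0.94, and 0.93 without the piece of 6 h at RT, so background signal alone can spread this far. The SDs of miR-1a-3p and miR-133a-3p were 0.24 and 0.22. Without the piece of 6 h at RT, left out after its values were seen, that of miR-499-5p was 0.43, larger than that of 77.6% of the 330, and those of miR-208b-3p and miR-208a-3p were 1.04 and 0.25.

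In the piece of 6 h at RT miR-499-5p and miR-208b-3p were low and miR-208a-3p was not. The miR-499-5p level of 7.19 was 5.3-fold below the median of the 5 other intact RT pieces, which ranged from 9.12 to 10.20. Among the 329 miRNAs detected on all 15 heart arrays, this was the largest fall from that median; the next were miR-466g (-1.41) and miR-135a-5p (-1.16). miR-208b-3p, which was not detected in this piece, was 3.42 log2 units below its median of 2.98. miR-499-3p, the other arm of the miR-499 hairpin, was not detected either and was at 0.54. Its median was 2.40, the level of the 12 h piece, in which it was also not detected. miR-208a-3p was 0.33 above its median and within the range of the other pieces. Both probes of miR-499-5p were low: they read 67.3 and 74.1 units at 6 h, 502 and 565 at 3 h, and 313 and 361 at 12 h. Over the 15 heart arrays the log2 ratio of the probes had an SD of 0.03.

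At 4 °C the pieces of 1 h and 6 h were the lowest in both miRNAs. Beside the median of the 5 other pieces at 4 °C, miR-499-5p was 1.09 lower at 1 h and 0.67 lower at 6 h. miR-208b-3p was at 0.61 and 0.70 in them, beside a median of 2.75. miR-208a-3p was 0.16 lower at 1 h and at its median at 6 h. The highest miR-208b-3p level in the series, 4.40, was in the piece of 3 h at 4 °C, where miR-499-5p was at 9.93 and so within the range of the others.

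Markers of other cell types differed in the pieces of 6 h, and little in that of 1 h at 4 °C. In the piece of 6 h at RT all 3 blood miRNAs were above the 5 other intact RT pieces: miR-451a was at 14.90 against 13.12 to 14.58, miR-144-3p at 11.27 against 9.38 to 10.83, and miR-486a-5p at 9.53 against 8.87 to 9.35. Of the 5 miRNAs of vessel and stroma 4 were above and 1 within, and those of endothelium were within (2 of 2). miR-1a-3p, at 14.19 against 14.26 to 14.89, was below the 5 others. miR-133a-3p, at 12.82, was below them by less than the 2 decimals shown. Both were 0.23 below their medians. Of all 329 miRNAs, 44.7% were above and 7.29% below the other pieces, and the highest was miR-218-5p at 7.71 against a median of 4.11. At 4 °C the blood miRNAs were high in the piece of 6 h (miR-451a 14.94 beside a median of 12.74) but not in that of 1 h (12.57). In the piece of 1 h all 3 were within the range of the 5 others. There miR-126a-3p (12.25) was just below the lowest of the others (12.28), and miR-145a-5p (7.65) just above the highest (7.60). At the 2 decimals shown, miR-126a-5p and miR-143-3p equalled an end of that range. The piece of 6 h at 4 °C was below the 5 others in miR-126a-3p (12.14) and miR-126a-5p (7.85) of endothelium. Of the 5 miRNAs of vessel and stroma, miR-143-3p (8.83) and miR-199a-3p (8.61) were below the others and 3 within their range. miR-1a-3p, at 14.10, was below the 5 others there, of which the lowest was 14.39, and differed from its median by -0.49. miR-133a-3p was within their range and differed from its median by -0.18. In bulk pieces fewer cells of a type and less of a miRNA per cell cannot be told apart from 1 miRNA. In the piece of 6 h at RT miR-499-5p differed from its median by -2.41, while the other heart miRNAs miR-208a-3p, miR-1a-3p and miR-133a-3p differed by 0.33, -0.23 and -0.23.

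**Figure D4:**
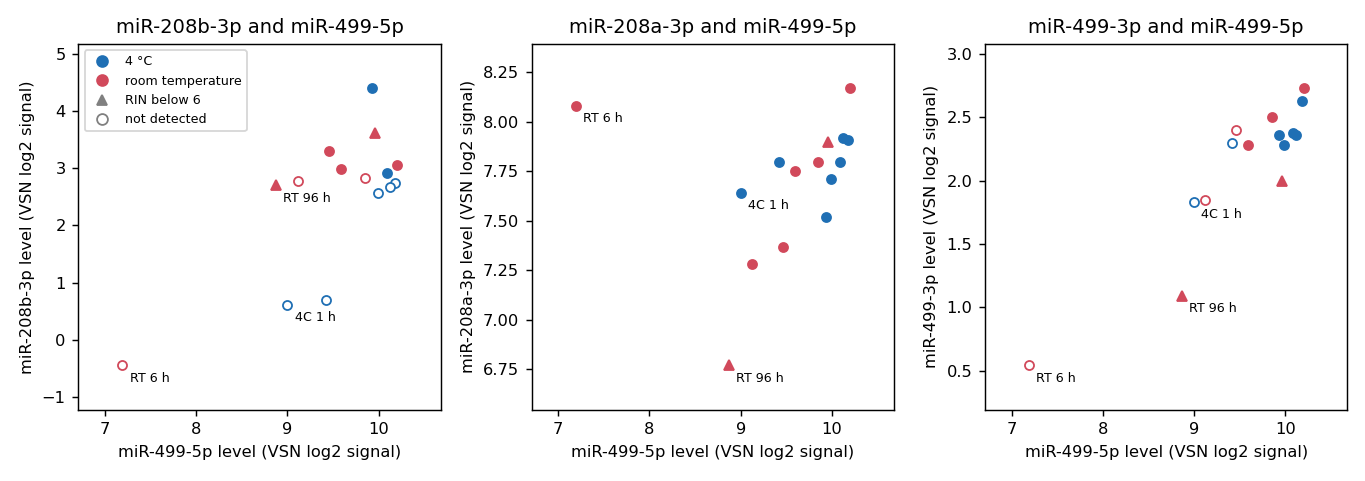
Levels (VSN log2 signal) of miR-208b-3p, miR-208a-3p and miR-499-3p against miR-499-5p in the 15 heart pieces, by storage temperature. Triangles are pieces of RIN below 6, and open points are not detected for the miRNA on the vertical axis. The piece of 6 h at RT is lowest in miR-499-5p, miR-208b-3p and miR-499-3p and lies at 8.08 for miR-208a-3p.

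How far the members moved together was described by Pearson's r over heart pieces, after the mean of each slide was subtracted. Pieces share an animal, a slide and a normalization, and r is given as a description. miR-208b-3p was detected in 7 of the 15 pieces and in 5 of the 13 intact ones, so each r with it includes values near the background. Over the 15 pieces r was 0.82 for miR-208b-3p with miR-499-5p, from host genes on different chromosomes, and -0.22 for miR-208a-3p with miR-208b-3p, from neighbouring genes. For miR-208a-3p with miR-499-5p it was 0.11. Over the 13 intact pieces these were 0.83, -0.35 and -0.05. With the piece of 6 h at RT then dropped they were 0.67, -0.12 and 0.52. The slide means subtracted for these last values still included that piece, so a difference between the slides is mixed into them. The r of miR-208a-3p with miR-499-5p was thus low only with that piece included. That of miR-208a-3p with miR-133a-3p was 0.84 over 15 pieces and 0.63 over 13.

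The miRNAs most like miR-208a-3p over the 15 heart pieces, among those detected on all of them, were miR-29c-5p, miR-101a-3p, miR-29c-3p, miR-101c and miR-30e-5p, with r of 0.96 to 0.97. Those most like miR-499-5p were miR-378c (0.90), miR-34a-5p (0.77), miR-135a-5p (0.76), miR-1897-3p (0.70) and miR-6481 (0.70). For miR-208b-3p, itself detected in 7 of the 15, they were miR-499-5p (0.82) and, at 0.60 and below, miR-6481, miR-378c, miR-466g and miR-7009-5p. Of these miRNAs, miR-466g (-1.41), miR-135a-5p (-1.16) and miR-6481 (-1.13) fell most after miR-499-5p in the piece of 6 h at RT. The part of that 1 piece in these r was not tested. Over all 45 arrays the order mostly reflects the tissues. There miR-208a-3p was most like miR-133a-5p, miR-133a-3p, miR-499-5p, miR-486a-5p and miR-378a-3p (0.96 to 0.98). miR-499-5p was most like miR-133a-3p, miR-133b-3p, miR-133a-5p, miR-486a-3p and miR-486a-5p (0.96 to 0.99), and miR-208b-3p most like miR-499-5p, miR-208a-3p, miR-133a-5p, miR-133a-3p and miR-378c (0.90 to 0.93).

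The sequences of the opposite arms of the same hairpins are shown because their seeds, again in capitals, differ from those of the members.
miR-208a-5p: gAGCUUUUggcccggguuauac
miR-208b-5p: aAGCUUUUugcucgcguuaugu
miR-499-3p: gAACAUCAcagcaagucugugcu

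miR-208b-5p was detected on 0 of 45 arrays. miR-208a-5p was detected on 15 of 15 heart arrays, but also on 12 of 16 brain and 9 of 14 liver arrays, where miR-208a-3p of the same hairpin was detected on 0. Its lowest, median and highest levels were 4.73, 5.04 and 5.86 in heart, 1.42, 3.22 and 4.34 in liver, and 1.67, 2.45 and 3.26 in brain, so that heart did not overlap with either. Its heart level exceeded that of liver by 2.33 ± 0.22 (SE) and that of brain by 2.37 ± 0.22, with limma adjusted p of 0.00157 and 0.000651. miR-499-3p was detected on 10 of 15 heart, 3 of 14 liver and 0 of 16 brain arrays. Its differences were 3.17 ± 0.75 and 4.33 ± 0.75, with limma adjusted p of 0.0279 and 0.00721.

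In heart the highest miR-208a-5p level was that of 96 h at RT, the piece with the lowest miR-208a-3p level. The unscaled signal of miR-208a-5p was 123 units there, 50.1 at 48 h and 24.7 to 41.3 in the intact RT pieces. Over the 13 intact pieces both arms moved together (r = 0.83, slide means subtracted), and over all 15 they did not (r = -0.15). The RT slopes of both analysed arms missed the threshold, at 0.16 ± 0.10 (SE) for miR-208a-5p and -0.24 ± 0.18 for miR-499-3p, with limma adjusted p of 0.201 and 0.253. For the arms of miR-499 r was 0.97 over 13 pieces and 0.90 over 15, and miR-499-3p was detected in 8 of the 13 and 10 of the 15.

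In liver, where RNA broke down fastest, the arms could be followed to RIN 2.3. Of the 6 liver arrays of RIN above 6, 5 were of 4 °C storage, and of the 8 of RIN 6 or lower 1 was. RIN thus largely followed the slide, the animal and the temperature, and these cannot be told apart here. The arrays held pieces of 2 livers, so the exact p-values below do not measure the spread between animals. miR-208a-5p was detected on 8 of 8 arrays of RIN 6 or lower and on 1 of 6 of higher RIN, at 3.44 ± 0.51 (SD) and 2.53 ± 0.74. miR-499-3p was detected on 3 of 8, those of 24, 48 and 96 h at RT, and on 0 of 6. The exact Wilcoxon-Mann-Whitney test over the 14 arrays, two-sided, gave p = 0.0426 for miR-208a-5p and 0.0813 for miR-499-3p, and neither passed after adjustment (0.104 and 0.168). The 3 members were detected on 0 of 8 and 0 of 6. Of these, 0 passed the exact test after adjustment, beside 27.7% of all miRNAs, and miR-499-5p alone had a p below 0.05 before it (exact p = 0.0426, adjusted 0.104), at -0.26 ± 0.65 (SD) against 0.43 ± 0.46, all below detection. The number of miRNAs detected per array moved with the RIN: it was 368 to 726 on the 8 arrays and 268 to 381 on the 6. Its part in the detection of these arms was not tested.

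**Figure D5:**
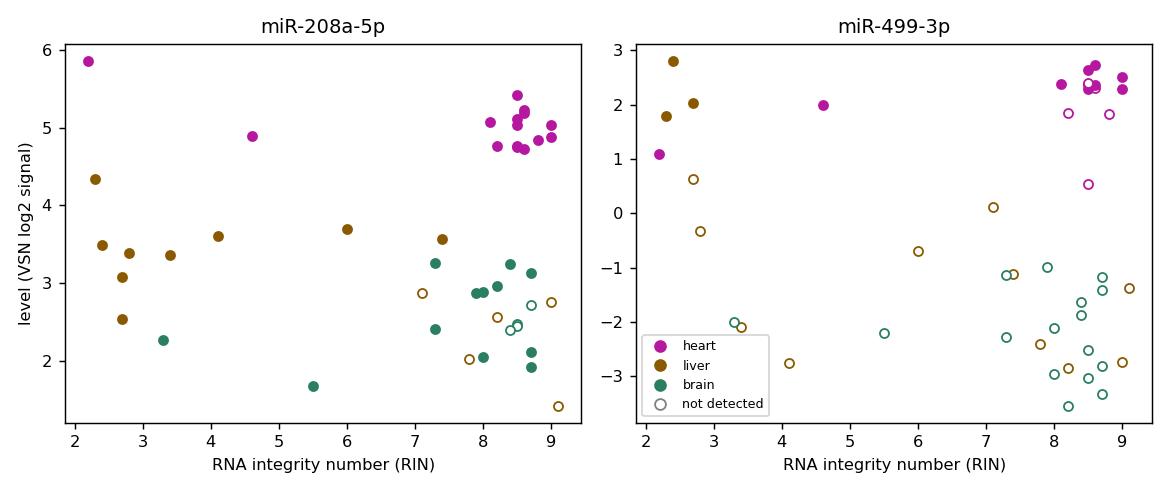
Level (VSN log2 signal) of miR-208a-5p and miR-499-3p against the RNA integrity number on the 45 arrays, by tissue; open points are not detected. miR-208a-5p is detected on all 8 liver arrays of RIN 6 or lower and on 1 of 6 above. Of these 6, 5 are of 4 °C storage, and of the 8, 1 is.

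The study's methods use Pearson's correlation of each miRNA with RIN and with storage time. Computed here over all 45 arrays, two-sided, with Benjamini-Hochberg adjustment and no minimum on r, that with RIN called 1 of the 3, miR-499-5p (adjusted p = 0.015), beside 74% of all miRNAs. No r is given for this, because the arrays fall into tissues. With the slide as a block the r of miR-499-5p with RIN was 0.40 (adjusted p = 0.0175), so its level was lower at lower RIN. With heart arrays alone its adjusted p was 0.702. Of the 45 values, 29 are from arrays on which miR-499-5p was not detected. miR-208a-3p was not called over the 45 arrays (adjusted p = 0.0961) but was called over the 15 heart arrays (0.0403), of which 2 have a RIN below 6 and where 68% of all miRNAs were called. For storage time, 0 of 3 were called over the 21 arrays at 4 °C, beside 5.28% of all, and 0 of 3 over the 24 at RT, beside 53.9%. With the slide as a block, miR-499-5p was called at RT (r = -0.46, adjusted p = 0.0411), beside 77.8% of all. Over the heart arrays at RT alone its adjusted p was 0.858.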

How the data were processed

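Per the file headers, the authors scanned 1-colour Agilent mouse miRNA arrays with Feature Extraction software, whose intensity values are background-subtracted and summed over the spots of a probe and the probes of a miRNA (30 spots from 2 probes for each member). The authors also deposited a table of log2 values after VSN. RNA was isolated as total RNA without DNase digestion. Of 46 arrays here, 45 were analysed, since the study removed the heart array of 0 h at 4 °C.

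VSN was refitted on the 45 arrays (on all 46 it differed from the deposited log2 values by at most 0.00166). miRNAs detected on at least 5 arrays were tested in limma 3.58.1 (R 4.3.3), with Benjamini-Hochberg adjustment over all 815 and a threshold of 0.05. Slide means entered the tissue comparison without the animal as a block, and hours entered the storage fits as a straight line. Exact tests were enumerated in Python 3.11.15. The limma fits of the RT slope and of heart against liver were tested on simulated data. So were the permutation test of a slope and the Wilcoxon-Mann-Whitney test. The members, the lists of muscle and marker miRNAs and the tests were chosen with earlier results of these data known. Named miRNAs are the members, their other arms, the muscle list, the marker lists and the 5 with the highest r to each member over 45 arrays and over 15 heart arrays; those named at the extremes of the 6 h piece were chosen after their values were seen. Alternatives were 6 normalizations, detection on at least 10 arrays or no filter, log2(hours + 1), 14 h in place of 12 h (as the methods have it), the slide as a block, and leaving out each array or slide. The number of arrays limits the precision.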

Additional observations from a re-analysis of the deposited data

Results flagged for a closer look

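In each of the 6 groups of a tissue and a temperature the highest and lowest level of each member were set against Dixon's 95% critical value, 18 tests in all, of which chance passes about 1 in 20. In 3 of the 18 a piece stood apart. miR-499-5p in the heart piece of 6 h at RT was at 7.19, with the next lowest of the 8 at 8.87. miR-208b-3p in the same piece was at -0.45, not detected, with the next at 2.70. miR-208b-3p in the brain piece of 0 h at RT was at -0.22, with the next highest at -1.94, and was detected on none of these arrays.

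The heart array of 0 h at 4 °C, which entered only 1 alternative fit of the 4 °C slopes, carried signal of 2 members. miR-208a-3p was detected there at 59.2 units and miR-499-5p at 184 units before scaling, above the highest values on the liver and brain arrays, -0.28 and 4.77 units. On the other heart arrays they were 148 to 412 and 141 to 1719 units. miR-208a-5p was not detected on it.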

How the results depend on the processing

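Under 18 alternatives, 17 for miR-208b-3p, which a minimum of 10 arrays leaves out, all 3 members stayed higher in heart than in liver and brain. Leaving out 1 slide gave differences of 4.64 to 10.92 from liver and 4.70 to 11.00 from brain, while under normexp they fell to 0.34 for miR-208b-3p, 2.92 for miR-208a-3p and 4.41 for miR-499-5p against liver. Over 29 results, 428 alternative values kept their direction and side of the threshold, 14 newly passed it, 29 changed direction and 30 counts moved. Storage slopes follow in log2 units per 24 h; the cause of the changes was not tested.

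For miR-208a-3p the RT slope, the difference of slopes and the degraded difference passed under 75th percentile scaling over the miRNAs detected on all arrays (-0.39, -0.35 and -1.09) and over all miRNAs (-0.56, -0.61 and -1.42), under quantile normalization (-0.44, -0.47 and -1.10) and under normexp (-0.31, -0.32 and -0.74). With no scaling they were 0.10, 0.039 and 0.65. Its 4 °C slope was -0.038 with the first of these. For miR-208b-3p, scaling over all miRNAs, quantile normalization and normexp gave RT slopes of -0.12, -0.19 and -0.024 and degraded differences of -0.17, -0.34 and -0.024; no scaling gave a slope difference of 0.24. For miR-499-5p, no scaling gave an RT slope of 0.29 and a slope difference of 0.11. Its degraded difference was -0.50, -0.84, -0.31 and -0.24 under the 4 scalings in the order given first, -0.14 against all intact heart arrays, -0.0038 per RIN unit lost with the slide as a block, and -0.23 without the 6 h RT array, an alternative chosen after seeing the data.

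Leaving out 1 array, the RT slopes ranged from -0.29 to -0.09 for miR-208a-3p, -0.024 to 0.61 for miR-208b-3p and -0.20 to 0.21 for miR-499-5p. The slope differences ranged from -0.31 to -0.11, -0.30 to 0.38 and -0.37 to 0.065. The degraded differences ranged from -0.98 to 0.16 for miR-208a-3p and -0.37 to 0.72 for miR-499-5p.

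The counts of all miRNAs moved more. Against liver 281 were called, 441 with single arrays and the slide as a random block, 156 with all arrays of a slide, and 125 to 462 without 1 slide (125 and 142 without the heart slides of 4 °C and RT, 462 without the liver slide of 4 °C). Against brain 385 were called, 245 to 492 without 1 slide (245 without the heart slide of RT, 252 without the brain slide of 4 °C). For RT slopes, 472 became 904 without the filter, 301 with log2(hours + 1), and 235 to 491 without 1 array (235 without 96 h). Without the 48 h and 96 h arrays limma called 0, with 111 at an unadjusted p under 0.05. At 4 °C, 77 became 31 without the filter, 9 with the 0 h array and 1 to 70 without 1 array (1 without 96 h, and 35 to 47 without 1, 3, 6 or 48 h). For the slope difference, 344 became 594 without the filter, 155 with log2(hours + 1) and 59 to 402 without 1 array (59 without 96 h at 4 °C), and for the degraded difference 394 became 876 without the filter and 199 to 460 without 1 array (199 without 96 h).

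Of the 18 pair tests, 2 passed with quantile normalization and 3 with normexp. The correlation with RIN called 0 members with no scaling, normexp or Bonferroni adjustment, and that with hours at RT called 1 with the slide as a block. In liver, 0 to 1 members were called without 1 array; miR-499-5p was called without that of 1 h at RT. With the animal as a replicate block in the tissue comparison, a pairing from the study's methods that was added after seeing the data, the 3 members stayed higher than in liver (adjusted p of 0.00164, 0.00114 and 0.000632 for miR-208a-3p, miR-208b-3p and miR-499-5p in limma) and brain (0.000343, 0.000263 and 0.000152), and 315 and 400 of all miRNAs were called.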
